A study of Mus musculus with 6 samples.

Results

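Fibroblast growth factor (FGF) ligands and their receptors were examined in endothelial cells (ECs) of MC38 tumors, as a family of 10 genes out of 24346 listed: the ligands Fgf1, Fgf2, Fgf7, Fgf10 and Fgf18, the receptors Fgfr1, Fgfr2, Fgfr3 and Fgfr4, and the receptor-like gene Fgfrl1. The family was selected on Fgf7, which had been seen to be high in wild-type (WT) ECs of these same samples. The difference between genotypes is therefore given here as a description for the members, with no test, and the counts over the members support nothing further. Fgfrl1 and the other members were taken because they belong to the family of Fgf7.

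Of the 6 samples, 3 held ECs from tumors of WT mice of the C57BL/6 strain and 3 from tumors of Apelin-KO mice on the C57BL/6 background, aged 8 to 10 weeks. All mice carried MC38 cells, a mouse colon carcinoma line, inoculated under the skin, and tumors were taken at day 19. The titles of both groups also name saline, and the text on this experiment does not say how it was given. Elsewhere the paper describes osmotic pumps with saline in MC38-bearing WT or Apelin-KO mice, without linking them to the sequenced samples. Cells were dissociated with enzymes and sorted as CD31+ CD45-, and their mRNA was sequenced. The knockout was not limited to ECs, so that ECs, other tumor stroma and the host as a whole differ between the groups, while the MC38 cells are the same. Nothing in the sources says that mice were pooled or that the samples were separate mice, so n = 3 counts samples, whose spread may in part be technical.

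FGFs are secreted proteins that bind heparan sulfate on cell surfaces and in the matrix, and a ligand, a receptor and a heparan sulfate chain form the signaling unit. The receptors are tyrosine kinases that signal through the adaptor Frs2, phospholipase C gamma and the Ras and ERK kinases, and ERK in turn raises feedback inhibitors such as the Sprouty and Dusp genes. In vessels, Fgf1 and Fgf2 are known as mitogens of ECs acting mostly through Fgfr1, whereas Fgf7, also called keratinocyte growth factor, is made by mesenchymal cells and acts on epithelium through an isoform of Fgfr2.

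The values are FPKM, fragments scaled to transcript length and to the number of mapped reads, and so can be compared between genes. Estimated depth was between 8910000 and 10170000 reads per sample. From 14089 to 14621 genes were above 0 in a sample. Apln itself was at 432, 435 and 504 FPKM in WT 1, 2 and 3 and at 9.96, 17.5 and 24.3 FPKM in Apelin-KO samples 1 to 3, and differed by 4.73 (standard error 0.29) as a log2 fold change, which is WT minus Apelin-KO on the log2(FPKM + 1) scale throughout. Its adjusted p was 0.00747 in limma after Benjamini-Hochberg adjustment. Reads assigned to Apln thus remained in Apelin-KO ECs, at 3.78% of the WT mean and an estimated 274 to 672 reads per sample, and which part of the gene was removed is not given in the sources used here. The call of Apln was lost without WT 2 (adjusted p = 0.122), without Apelin-KO 2 (adjusted p = 0.131) and with each gene's own variance (adjusted p = 0.497), with the fold change between 4.4 and 5.0 whichever sample was left out. The EC markers Pecam1 and Cdh5 were abundant in every sample, at 553 to 846 FPKM and 155 to 294 FPKM. The epithelial marker Epcam was at 0.264 FPKM in WT 1, at 0.157 FPKM in Apelin-KO 2 and listed at 0 in the other samples. The abundant genes Gapdh and Ppia, named here after their values were seen, were at no more than 0.433 and 0.411 FPKM in any sample. A value of 0 in these files is for that reason called listed at 0 and not absent.

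The stretches before the start sites of the ligand selected for its difference and of a ligand listed at 0 in every sample are shown first, so that a ligand seen in every sample stands beside one that was not. Both are the 250 bases before the annotated start, from RefSeq (GRCm38.p6), written 5′ to 3′ on the strand of the gene, with each CG in capitals. The Fgf7 stretch lies at chr2:126034408-126034657 on the plus strand and the Fgf18 stretch at chr11:33147401-33147650 on the minus strand.
Fgf7: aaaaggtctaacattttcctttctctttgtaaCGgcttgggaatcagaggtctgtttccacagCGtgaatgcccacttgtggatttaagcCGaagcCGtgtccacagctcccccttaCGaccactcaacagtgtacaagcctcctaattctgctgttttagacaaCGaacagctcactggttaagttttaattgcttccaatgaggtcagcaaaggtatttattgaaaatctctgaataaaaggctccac
Fgf18: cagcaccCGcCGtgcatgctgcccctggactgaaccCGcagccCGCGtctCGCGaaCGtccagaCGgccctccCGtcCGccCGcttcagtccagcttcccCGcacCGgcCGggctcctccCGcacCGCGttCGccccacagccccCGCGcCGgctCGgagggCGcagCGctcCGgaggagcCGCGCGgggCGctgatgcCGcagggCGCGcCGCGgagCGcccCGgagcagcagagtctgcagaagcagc
The stretch of Fgf7 held 6 CG and that of Fgf18 held 37 CG. Over 32851 stretches of the same length before annotated starts, the median was 6 CG, 49.6% had fewer than Fgf7 and 97.8% had fewer than Fgf18. Neither stretch held TATAAA, the core of the TATA box, on either strand, which 12.4% of all stretches did, or CCGGAA, a core bound by Ets factors, on either strand, which 12% did. The letters alone say nothing about which factors bind, and methylation was not measured. Such a stretch was taken for 8 of the 10 members, and none was taken for Fgf1 and Fgfr1, although both genes have annotated starts.

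Fgfr1 was by far the most abundant member. Averaged over all 6 samples, it reached 70.5 ± 19.1 FPKM (SD, n = 6), followed by Fgfrl1 at 1.96 ± 0.452 FPKM (SD, n = 6), Fgf1 at 1.77 ± 0.484 FPKM (SD, n = 6), Fgf7 at 1.33 ± 1.0 FPKM (SD, n = 6) and Fgfr3 at 0.901 ± 0.249 FPKM (SD, n = 6). Fgf2, Fgfr2 and Fgf10 were below these, at 0.113 ± 0.278, 0.0773 ± 0.0363 and 0.0198 ± 0.0291 FPKM (SD, n = 6). Fgf18 and Fgfr4 were listed at 0 in all 6 samples. The levels of the members other than Fgf7 were not used in choosing the family, and the order was tested within samples with a two-sided exact permutation test on log2(FPKM + 1), in which the sign of each sample's difference is flipped, for all 45 pairs of members. The smallest p that 6 samples allow in this exact test is 0.03125. As 32 of the 45 pairs reached it, it became 0.04395 after Benjamini-Hochberg adjustment over the 45 pairs. Since a listed 0 is not an absence and Fgf7 was chosen on its level in these samples, only 10 pairs are read. They are the pairs among the other 5 members above 0 in every sample (Fgfr1, Fgfrl1, Fgf1, Fgfr3 and Fgfr2), and 8 of them reached the smallest p. Their adjusted p thus also rests on the pairs that are not read. Fgfr1 was above each of the other 4 in 6 of 6 samples, and Fgfr2 below each (adjusted p = 0.04395 for each, exact permutation test). The place of Fgfr2 rests on an estimated 1.65 to 5.37 reads per sample. A low value in these files, as for Gapdh and Ppia, need not be a low level. Fgfrl1 was also above Fgfr3 in 6 of 6 samples (adjusted p = 0.04395, exact permutation test). The other 2 pairs did not pass. In the same exact permutation test, Fgfrl1 was above Fgf1 in 3 of 6 samples (adjusted p = 0.668) and Fgf1 above Fgfr3 in 5 of 6 (adjusted p = 0.0827). The place of Fgf7 in this pooled order differed by genotype. By the means of the 3 WT samples it was next after Fgfr1, at 2.16 FPKM beside 2.14 for Fgfrl1, 1.95 for Fgf1 and 0.835 for Fgfr3. By those of the 3 Apelin-KO samples it was below all of these, at 0.493 FPKM beside 1.78 for Fgfrl1, 1.58 for Fgf1 and 0.967 for Fgfr3. With any sample left out, the smallest p of the exact permutation test is 0.0625 and no pair passes.

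**Figure D1:**
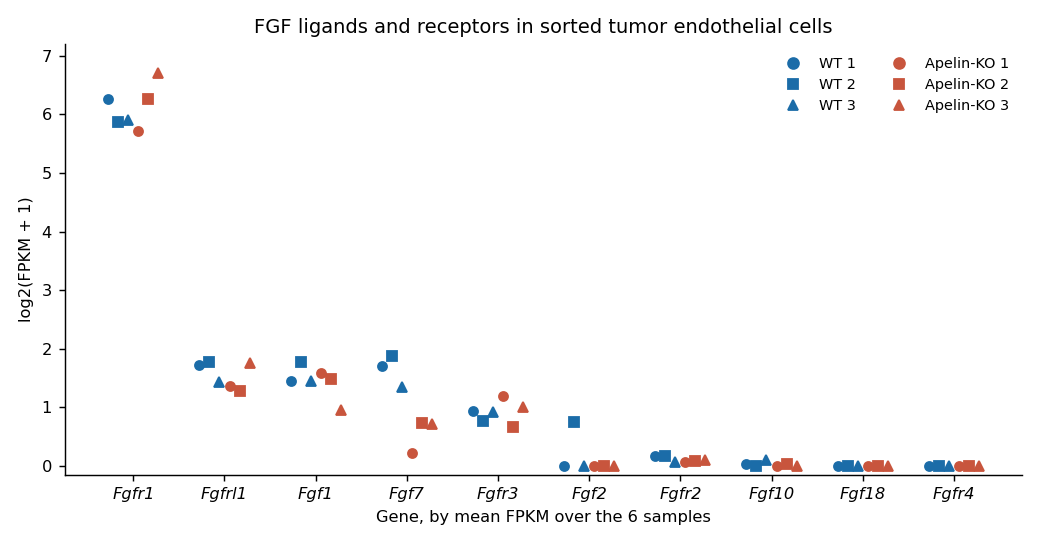
Expression of the 10 FGF genes in each sample. The x axis lists the genes by their mean FPKM over the 6 samples, the y axis is log2(FPKM + 1), and each symbol is a sample, WT in blue and Apelin-KO in red. Fgfr1 stood apart at 51.8 to 104 FPKM, while Fgfrl1, Fgf1, Fgf7 and Fgfr3 lay at 2.69 FPKM or less in every sample.

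Fgf7 was the ligand whose levels chose the family. The gene lies on chr2:126034658-126091185 (GRCm38, plus strand), with 4 exons in its longest transcript. It was at 2.26, 2.69 and 1.54 FPKM in WT 1, 2 and 3 and at 0.172, 0.668 and 0.640 FPKM in Apelin-KO samples 1 to 3. The groups did not overlap, the WT samples being the 3 highest, and Apelin-KO 1 was the lowest of all. The means were 2.16 ± 0.580 FPKM (SD, n = 3) in WT ECs against 0.493 ± 0.279 FPKM (SD, n = 3) in their Apelin-KO counterparts, or 22.8% of the WT mean. On the log2(FPKM + 1) scale, WT ECs were higher by 1.08 (standard error 0.19). Since the pseudocount of 1 FPKM is near the level of the gene, this difference was 1.44 with a pseudocount of 0.5 FPKM and 2.04 with 0.1 FPKM. It lay between 0.92 and 1.23 whichever sample was left out. These levels rest on few reads, estimated at 56.4, 59.2 and 34.6 for WT 1, 2 and 3 and at 3.96, 16.8 and 14.8 for the Apelin-KO samples. Fgf7 passed the minimum of a mean of 1 FPKM only through the WT samples. Fam227b, on the other strand, shared 0 exon bases with Fgf7 and was listed at 0 in all samples.

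Fgf1, the ligand that binds all FGF receptors, had overlapping groups. The gene lies on chr18:38838673-38929472 (GRCm38, minus strand). It was at 1.72, 2.42 and 1.73 FPKM in WT 1, 2 and 3 and at 2.01, 1.81 and 0.937 FPKM in Apelin-KO samples 1 to 3. Apelin-KO 3 was low and WT 2 high, and the other samples were mixed. The means were 1.95 ± 0.399 FPKM (SD, n = 3) and 1.58 ± 0.569 FPKM (SD, n = 3), and the log2 fold change was 0.21 (standard error 0.19). It was 0.02 without Apelin-KO 3, 0.10 without WT 2 and 0.33 without Apelin-KO 1, and 0.34 with a pseudocount of 0.1 FPKM. An estimated 33.2 to 81.4 reads per sample lay behind these values.

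Because Fgf7 was high in WT samples only, these ligands made up different shares of the summed ligand FPKM. That sum was 4.01, 5.78 and 3.34 FPKM in WT 1, 2 and 3 and 2.18, 2.495 and 1.58 FPKM in Apelin-KO samples 1 to 3, without overlap. Fgf7 was 56.5%, 46.5% and 46.1% of it in the WT samples and 7.89%, 26.8% and 40.6% in the Apelin-KO samples. Fgf1 was 42.9%, 41.8% and 51.7% in the WT samples and 92.1%, 72.3% and 59.4% in the Apelin-KO samples. These shares follow in part from the choice of Fgf7 and are descriptions.

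The other 3 ligands were listed at 0 in at least 3 samples each. Fgf2, a classic EC mitogen on chr3:37348346-37410108 (GRCm38, plus strand), was at 0.680 FPKM in WT 2, an estimated 35.0 reads, and listed at 0 in the other 5 samples. The value of WT 2 thus made up the whole mean of Fgf2. Of the 6782 exon bases of Fgf2, 640 are shared with Nudt6 on the other strand, which was at 2.19 to 4.15 FPKM, and whether strand was used in counting is not given in the sources used here. Fgf10, a relative of Fgf7 that acts on the same receptor isoform, lies on chr13:118669791-118792115 (GRCm38, plus strand). It was at 0.022, 0 and 0.075 FPKM in WT 1, 2 and 3 and at 0, 0.022 and 0 FPKM in Apelin-KO samples 1 to 3, which is at most 2.67 estimated reads in a sample. Fgf18, a ligand known from bone and lung development on chr11:33117430-33147400 (GRCm38, minus strand), was listed at 0 throughout, where 1 read would be 0.111 to 0.127 FPKM.

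Fgfr1, the main FGF receptor of ECs, lies on chr8:25513654-25575718 (GRCm38, plus strand), with 18 exons in its longest transcript. It was at 75.7, 57.6 and 58.7 FPKM in WT 1, 2 and 3 and at 51.8, 75.7 and 104 FPKM in Apelin-KO samples 1 to 3. The Apelin-KO samples held both the lowest and the highest value, so that the groups overlapped. The means were 63.998 ± 10.1 FPKM (SD, n = 3) for WT and 77.1 ± 26.007 FPKM (SD, n = 3) for Apelin-KO. The log2 fold change was -0.22 (standard error 0.25), and it was 0.02 without Apelin-KO 3, so that its sign rested on that sample, -0.475 without Apelin-KO 1 and -0.345 without WT 1. An estimated 2340 to 4700 reads per sample lay behind Fgfr1. Fgfr1 made up between 94.66% and 97.33% of the summed FPKM of the 4 receptors and Fgfrl1 in every sample.

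Fgfrl1 encodes a receptor that binds FGF but lacks the kinase domain. It lies on chr5:108692382-108706924 (GRCm38, plus strand). Its level was 2.30, 2.44 and 1.70 FPKM in WT 1, 2 and 3 and 1.56, 1.42 and 2.37 FPKM in Apelin-KO samples 1 to 3. Apelin-KO 3 lay between the WT samples, and the other Apelin-KO samples lay below all of them, WT 3 being the lowest of its group. The means were 2.14 ± 0.393 FPKM (SD, n = 3) and 1.78 ± 0.510 FPKM (SD, n = 3), and the log2 fold change was 0.18 (standard error 0.16). It was 0.09 without Apelin-KO 2, 0.11 without WT 2, 0.29 without WT 3 and 0.33 without Apelin-KO 3.

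Fgfr3, a receptor best known from growing cartilage, lies on chr5:33721674-33737068 (GRCm38, plus strand). It was at 0.913, 0.695 and 0.896 FPKM in WT 1, 2 and 3 and at 1.30, 0.591 and 1.01 FPKM in Apelin-KO samples 1 to 3. The groups overlapped, with Apelin-KO samples both lowest and highest, and an estimated 24.3 to 49.1 reads per sample. Fgfr2, whose isoforms receive Fgf7 and Fgf10, was at 0.126, 0.119 and 0.043 FPKM in WT 1, 2 and 3 and at 0.046, 0.062 and 0.068 FPKM in Apelin-KO samples 1 to 3. At 1.65 to 5.37 estimated reads per sample, a difference in Fgfr2 was not detectable at this depth, and gene-level values do not separate its isoforms. Fgfr4, a receptor prominent in liver, lies on chr13:55152640-55168759 (GRCm38, plus strand) and was listed at 0 throughout, where 1 read would be 0.0315 to 0.0359 FPKM.

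**Figure D2:**
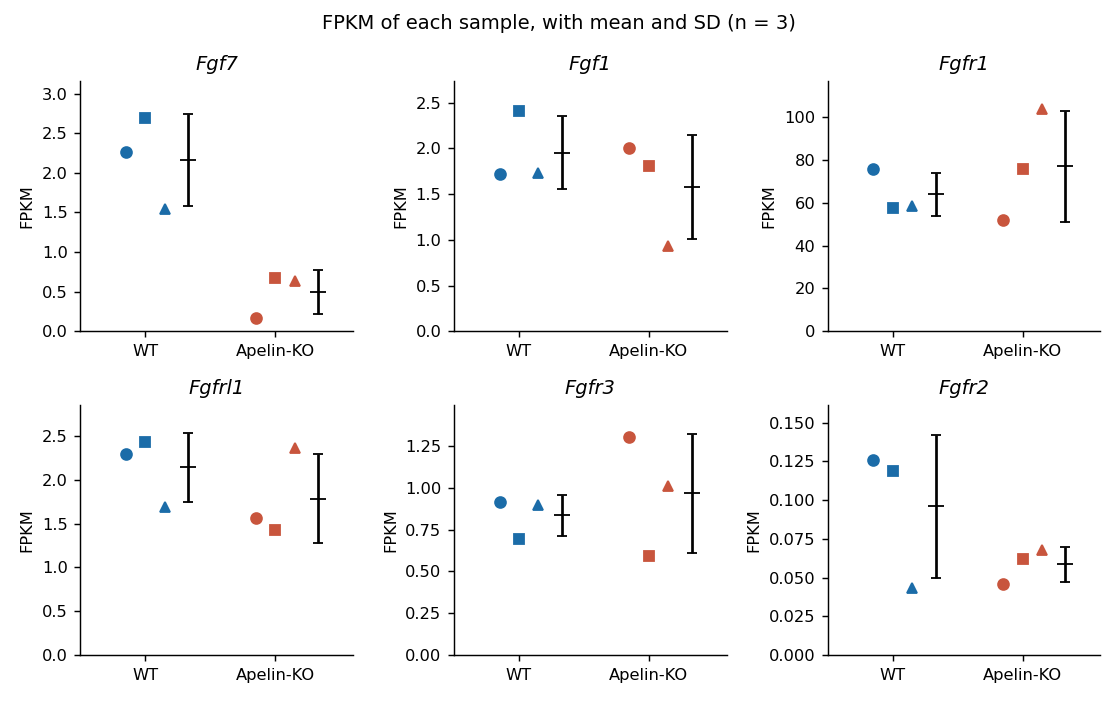
FPKM of 6 members by genotype. Each panel is a gene with its own y axis from 0, each symbol is a sample (circle, square and triangle for replicates 1, 2 and 3), and the bar beside each group is the mean with the SD (n = 3). Only in the panel of Fgf7 do the groups not overlap, at 1.54 to 2.69 FPKM in WT and 0.172 to 0.668 FPKM in Apelin-KO samples.

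Of the 10 members, 4 had a mean of at least 1 FPKM and entered the fit over 10964 genes (Fgf1, Fgf7, Fgfr1 and Fgfrl1). Since the family was selected on this comparison, no p is given for a member between genotypes. Groups without overlap were seen for Fgf7 in the direction of WT, where 6.61% of all genes tested had them, and for 0 members in the direction of Apelin-KO, where 7.77% did, and nothing is read from these counts. At an unadjusted p under 0.05 in limma, the calls over all genes were 567 higher and 466 lower in WT ECs, and 624 and 335 with the FPKM scaled to the same sum in every sample. With 3 samples against 3, an exact permutation test of a gene cannot give a p below 0.1.

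Because the samples are bulk, fewer cells of a type and less RNA per cell cannot be told apart, and markers of other cell types were compared beside Fgf7. The fibroblast markers, 15 genes, summed to 369.3, 369.7 and 215.8 FPKM in WT 1, 2 and 3 and to 144.2, 195.3 and 227.9 FPKM in Apelin-KO samples 1 to 3. Only WT 3 lay within the range of the Apelin-KO samples. Of the 10 that were tested, 10 had a higher mean in WT ECs, 5 of them at an unadjusted p under 0.05 in limma, where 5.17% of all genes tested were. The median log2 fold change was 0.47, where the median over all genes was -0.01, and none of the 15 was listed at 0 in every sample. Without WT 1, 8 were higher and 2 lower, with a median of 0.32. With no filter on the mean, 14 were higher and 1 lower, 3 and 1 of them at an unadjusted p under 0.05 in limma. The count of 5 was 1 without WT 1, without WT 2 or without Apelin-KO 1, 2 without Apelin-KO 2 and 8 without WT 3, and 1 with each gene's own variance. Among them, Dcn, a matrix proteoglycan, was at 40.9, 30.0 and 36.5 FPKM in WT samples against 14.7, 25.3 and 18.5 FPKM in Apelin-KO samples (log2 fold change 0.86, standard error 0.21, adjusted p = 0.501 from limma). Col1a1, the main collagen of fibroblasts, was at 152, 186 and 89.5 FPKM in WT samples against 64.5, 79.6 and 106 FPKM in Apelin-KO samples. Pdgfra, a receptor that marks fibroblasts, was at 3.86, 2.80 and 1.83 FPKM in WT samples against 1.003, 1.27 and 2.27 FPKM in Apelin-KO samples. The groups of Dcn did not overlap, and those of Col1a1 and Pdgfra did.

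The hematopoietic markers, 20 genes, summed to 1034, 1632 and 516 FPKM in WT 1, 2 and 3 and to 210, 636 and 472 FPKM in Apelin-KO samples 1 to 3, although CD45+ cells had been gated out. Of the 16 tested, 16 had a higher mean in WT ECs, 8 at an unadjusted p under 0.05 in limma, where 5.17% of all genes tested were. The median log2 fold change was 1.25 (0.81 without Apelin-KO 1), and none of the 20 was listed at 0 in every sample. Without WT 2 or without Apelin-KO 1, 0 of the 16 passed an unadjusted p under 0.05, 1 did without WT 1, 3 without Apelin-KO 3 and 16 without WT 3, and 0 with each gene's own variance. Ptprc, which encodes CD45, was at 3.13, 4.84 and 1.27 FPKM in WT samples against 0.043, 1.70 and 0.740 FPKM in Apelin-KO samples. WT 2 was the highest and Apelin-KO 1 the lowest sample for Ptprc, as they were for Fgf7. The pericyte markers summed to 157 to 195 FPKM in WT samples and to 206 to 230 FPKM in Apelin-KO samples. Of the 10 tested, 2 were higher and 8 lower in WT ECs, and 4 and 6 with the FPKM scaled to the same sum. Among pericyte genes, Rgs5 was at 3.17 to 3.66 FPKM in WT and 6.83 to 8.67 FPKM in Apelin-KO samples (log2 fold change -0.98, standard error 0.11, adjusted p = 0.214 from limma), and the groups of Pdgfrb overlapped. The epithelial markers summed to 8.74 to 22.1 FPKM over all 6 samples, with 1 of 15 (Cdx2) listed at 0 in every sample. The part of fibroblast and hematopoietic RNA in the difference of Fgf7 was not tested.

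**Figure D3:**
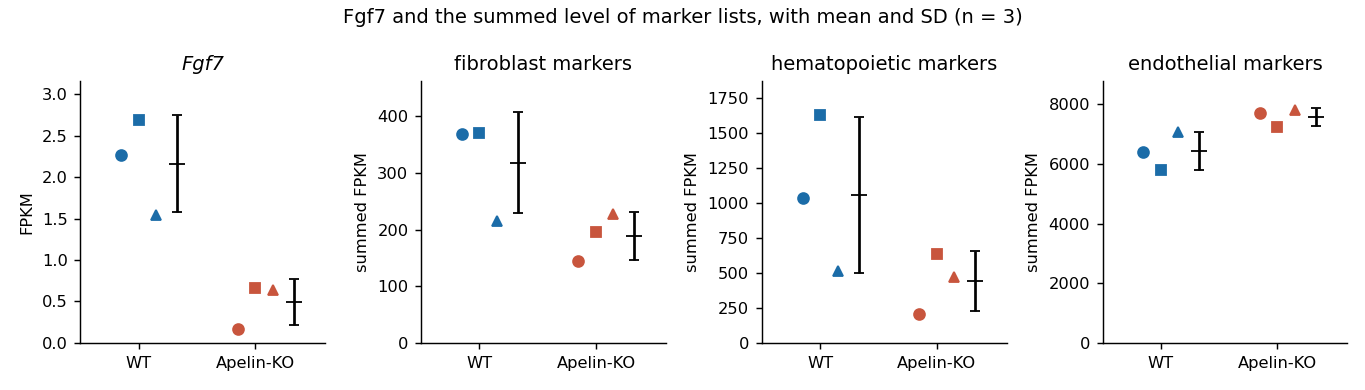
Fgf7 beside marker genes of fibroblasts, hematopoietic cells and ECs. The y axes are the FPKM of Fgf7 and the summed FPKM of each list, each symbol is a sample (circle, square and triangle for replicates 1, 2 and 3), and the bar is the mean with the SD (n = 3). The fibroblast and hematopoietic sums were highest in WT 1 and WT 2, as Fgf7 was, while the EC marker sums were 5807 to 7075 FPKM in WT samples and 7243 to 7802 FPKM in Apelin-KO samples.

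Genes with a pattern most like that of a member were taken by the Pearson correlation of log2(FPKM + 1) over the 6 samples, which is a description across samples that also share their genotype. For Fgf7 these were Eif4e, the cap-binding translation factor (r = 0.989), Tceanc2 (r = 0.988) and AI597479 (r = 0.987). Eif4e was at 42.5, 44.2 and 39.7 FPKM in WT samples against 34.4, 36.2 and 35.6 FPKM in Apelin-KO samples. For Fgf1 they were Gnpat, an enzyme of ether lipid synthesis (r = 0.993), Dhrs7b (r = 0.990) and Dcps, the scavenger decapping enzyme (r = 0.989). For Fgfr1 they were Arhgap25 (r = 0.994), Afap1, an actin filament protein (r = 0.992), and Dcp1a, a decapping factor (r = 0.987). For Fgfrl1 they were Fth1, the ferritin heavy chain (r = 0.983), Krit1, a junction protein of ECs (r = 0.980), and Emc4 (r = 0.978). The search was over 10964 genes, and none of these genes had an adjusted p under 0.05 in limma between genotypes.

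The FGF ligands outside the family, 13 genes, had a mean under 1 FPKM, and 10 of them were listed at 0 in all 6 samples, which is not read as absence. The highest was Fgf23, a hormone of phosphate balance, at 0.353, 0.177 and 0.174 FPKM in WT samples against 0.085, 0.039 and 0.084 FPKM in Apelin-KO samples. Its groups did not overlap, at levels too low for the fit. Fgf9, a ligand of mesenchyme, was at 0.027 to 0.098 FPKM over all samples. The 4 FGF homologous factors, which stay inside the cell and act on sodium channels, also had a mean under 1 FPKM. Among them, Fgf13 varied within both genotypes, at 1.35, 0.096 and 0.540 FPKM in WT samples against 0.940, 0.429 and 0.233 FPKM in Apelin-KO samples, and Fgf11 was at no more than 0.411 FPKM.

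Across 93 other genes of the pathway, 62 could be tested, and 0 had an adjusted p under 0.05 in limma, as Apln alone among all genes did (0.00912%). At an unadjusted p under 0.05, 6 were higher in WT ECs, where 5.17% of all genes tested were, and 6 were lower, where 4.25% were. The counts of 6 and 6 were 2 and 2 without WT 1, 2 and 1 without WT 2, 3 and 3 without Apelin-KO 1, 3 and 2 without Apelin-KO 2, and 6 and 2 without Apelin-KO 3. By sign, 24 were higher and 38 lower in WT ECs, but 36 higher and 26 lower with the FPKM scaled to the same sum and 31 and 31 without Apelin-KO 3, so that no lean is read from the median of -0.03.

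Co-receptors and carriers held 5 of these 6 genes that were higher in WT ECs. Of 12 tested, 5 were higher and 1 was lower at an unadjusted p under 0.05 in limma, where 5.17% and 4.25% of all genes tested were. The median log2 fold change was 0.38, where the median over all genes was -0.01. The count of 5 was 2 without WT 1, without WT 2 or without Apelin-KO 1, 3 without Apelin-KO 2, and 1 with each gene's own variance. The median was 0.21 when the filter was raised to a mean of 5 FPKM. Cd44, a hyaluronan receptor with heparan sulfate on some isoforms, was at 12.7, 18.4 and 6.69 FPKM in WT samples against 3.36, 5.88 and 5.21 FPKM in Apelin-KO samples, which was a difference of 1.15 on the log2 scale (standard error 0.34, adjusted p = 0.501 from limma). The groups did not overlap, with WT 3 just above Apelin-KO 2.

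Sdc2, a syndecan that carries heparan sulfate on the cell surface, was at 12.008, 15.7 and 6.88 FPKM in WT samples against 3.86, 5.96 and 6.80 FPKM in Apelin-KO samples (log2 fold change 0.90, standard error 0.30, adjusted p = 0.501 from limma). Flrt3, a membrane protein that binds FGF receptors, was at 6.46, 3.48 and 3.79 FPKM in WT samples against 1.43, 2.31 and 2.64 FPKM in Apelin-KO samples (log2 fold change 0.82, standard error 0.24, adjusted p = 0.501 from limma). Neither gene's groups overlapped, and for Sdc2 the gap between WT 3 and Apelin-KO 3 was small. In the other direction, Gpc4, a glypican, was at 9.85, 11.6 and 13.8 FPKM in WT samples against 14.0, 17.1 and 19.5 FPKM in Apelin-KO samples (log2 fold change -0.48, standard error 0.16, adjusted p = 0.505 from limma). As with Fgf7, the samples high in Cd44 and Sdc2 were WT 1 and WT 2, which had the highest sums of hematopoietic and fibroblast markers, and the part of those cells in these values was not tested. The most abundant genes of this group, Sdc3 at 152 and 169 FPKM and Nrp1 at 150 and 148 FPKM in WT and Apelin-KO ECs, had log2 fold changes of -0.15 and 0.02, the difference of Sdc3 being -0.0955 without WT 2 and the sign for Nrp1 changing without WT 3 or without Apelin-KO 3.

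Enzymes that build and trim heparan sulfate had small differences between the genotype means. Of 14 tested, 1 was higher and 0 were lower at an unadjusted p under 0.05 in limma, where 5.17% and 4.25% of all genes tested were. The fold changes lay between -0.22 and 0.26 on the log2 scale. With a sample left out, the count of 1 stood without Apelin-KO 1 and was 0 otherwise. The count of lower genes was 1 without WT 3 and 1 with each gene's own variance. Hs3st1, which adds 3-O-sulfate, was at 9.08, 8.29 and 8.59 FPKM in WT samples against 7.90, 6.75 and 6.62 FPKM in Apelin-KO samples (log2 fold change 0.26, standard error 0.11, adjusted p = 0.522 from limma). The polymerases Ext2 and Ext1 were the most abundant, at 86.2 ± 3.32 and 72.6 ± 3.88 FPKM (SD, n = 3) for WT, against 95.9 ± 3.80 and 70.4 ± 6.41 FPKM (SD, n = 3) for Apelin-KO. The difference of Ext1 turned to -0.03 on the log2 scale without Apelin-KO 3. By sign alone, 8 of the 14 were higher in WT ECs, and 12 were with the FPKM scaled to the same sum.

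The relay from the receptors to ERK was expressed throughout, with 20 of 21 genes tested. At an unadjusted p under 0.05 in limma, 0 were higher and 2 were lower in WT ECs, where 5.17% and 4.25% of all genes tested were. The median log2 fold change was -0.08. By sign, 16 of the 20 were lower in WT ECs, but 10 were lower and 10 higher with the FPKM scaled to the same sum, where 0 passed in either direction and the median was -0.04. The median was -0.14 without Apelin-KO 2 and -0.05 without Apelin-KO 3. The count of 2 was 0 without Apelin-KO 2 and 1 without any other sample. Without Apelin-KO 3, 1 gene was also higher at an unadjusted p under 0.05 in limma, and by sign 8 were higher and 12 lower. Plcg1, the phospholipase C bound by the receptors, was at 48.4, 38.4 and 46.5 FPKM in WT samples against 55.9, 51.5 and 54.4 FPKM in Apelin-KO samples (log2 fold change -0.28, standard error 0.12, adjusted p = 0.525 from limma). Sos1, the exchange factor that loads Ras, was at 3.91, 4.17 and 3.60 FPKM in WT samples against 4.70, 5.08 and 4.94 FPKM in Apelin-KO samples (log2 fold change -0.27, standard error 0.10, adjusted p = 0.509 from limma). For both genes every WT sample lay below every Apelin-KO sample, and the difference of Plcg1 was -0.18 on the log2 scale without WT 2. Mapk3, a kinase at the end of this relay, was the most abundant gene of the group, at 94.9, 111 and 124 FPKM in WT samples against 134, 112 and 129.7 FPKM in Apelin-KO samples (log2 fold change -0.19, standard error 0.14, adjusted p = 0.687 from limma). Its groups overlapped, and the difference was -0.09 on the log2 scale without WT 1.

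Among feedback inhibitors and target genes of FGF signaling, the genes that passed without adjustment were those lower in WT ECs. Of 16 tested, 0 were higher and 3 were lower at an unadjusted p under 0.05 in limma, where 5.17% and 4.25% of all genes tested were. By sign, 12 of 16 were lower, with the median at -0.11 on the log2 scale. The split by sign was 8 and 8 without Apelin-KO 3, with a median of -0.00342. The median was -0.17, -0.06 and -0.06 without WT 1, WT 2 and WT 3 and -0.22 without Apelin-KO 1, and the count of 3 was 1 without WT 1, without Apelin-KO 1 or without Apelin-KO 3, and 0 without WT 2. Dusp6, a phosphatase of ERK that ERK signaling itself raises, was at 127, 116 and 131 FPKM in WT samples against 150, 141 and 161 FPKM in Apelin-KO samples (log2 fold change -0.27, standard error 0.10, adjusted p = 0.515 from limma). All WT samples were below all Apelin-KO samples.

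Spry1, a Sprouty inhibitor of receptor tyrosine kinase signaling, was at 67.4, 59.1 and 85.3 FPKM in WT samples against 123, 89.2 and 85.4 FPKM in Apelin-KO samples (log2 fold change -0.48, standard error 0.19, adjusted p = 0.516 from limma). Il17rd, a membrane inhibitor of FGF receptors also called Sef, was at 1.65, 1.41 and 1.27 FPKM in WT samples against 1.96, 1.79 and 2.38 FPKM in Apelin-KO samples (log2 fold change -0.31, standard error 0.12, adjusted p = 0.513 from limma). The groups of both did not overlap, but for Spry1 WT 3 and Apelin-KO 3 were at nearly the same level, and its difference was -0.32 on the log2 scale without Apelin-KO 1. Ier3, an early response gene and the next most abundant of this group after Dusp6, was at 114, 70.2 and 72.3 FPKM in WT samples against 72.2, 122 and 199 FPKM in Apelin-KO samples, with overlapping groups. These genes answer to many receptors, so that their levels are not a readout of FGF alone. Beside them, the mean of 15 of 15 EC markers was lower in WT ECs. Of these, 4 were at an unadjusted p under 0.05, where 4.25% of all genes tested were lower, and 0 passed after adjustment in limma. The median was at -0.24 on the log2 scale. Without WT 2 these were 14 of 15, 0 and -0.15, and the count of 4 was 0 without Apelin-KO 3, 1 without WT 1, 8 without WT 3 and 2 with each gene's own variance. The part of EC RNA in these values was not tested.

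**Figure D4:**
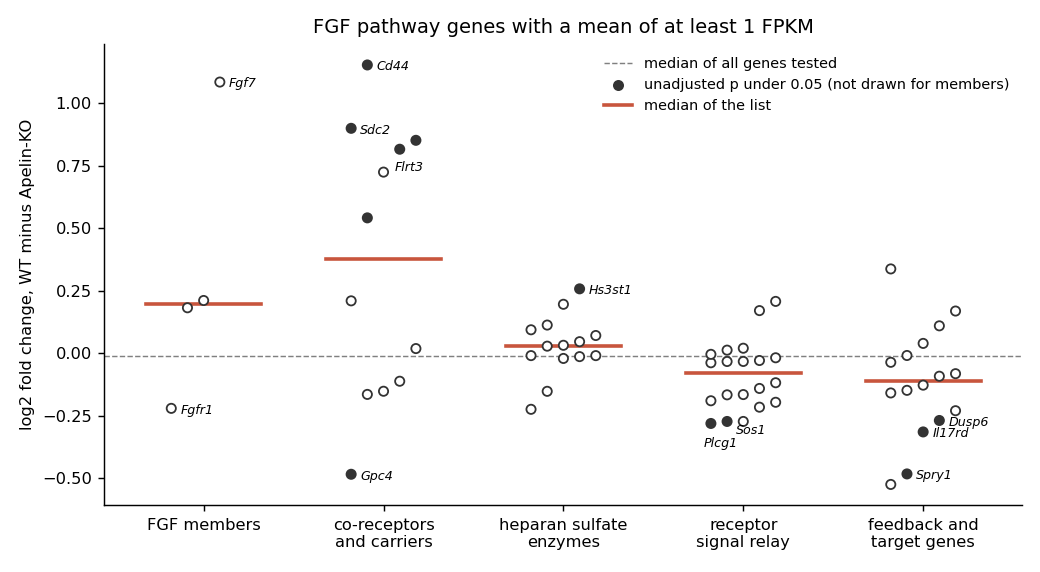
Log2 fold change, WT minus Apelin-KO, of the tested genes in each group of the FGF pathway. Each circle is a gene, filled where the unadjusted p was under 0.05 (not drawn for the family members), the red line is the median of the group and the dashed line the median over all 10964 genes tested. The medians ran from 0.38 for co-receptors and carriers to -0.11 for feedback and target genes.

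**Figure D5:**
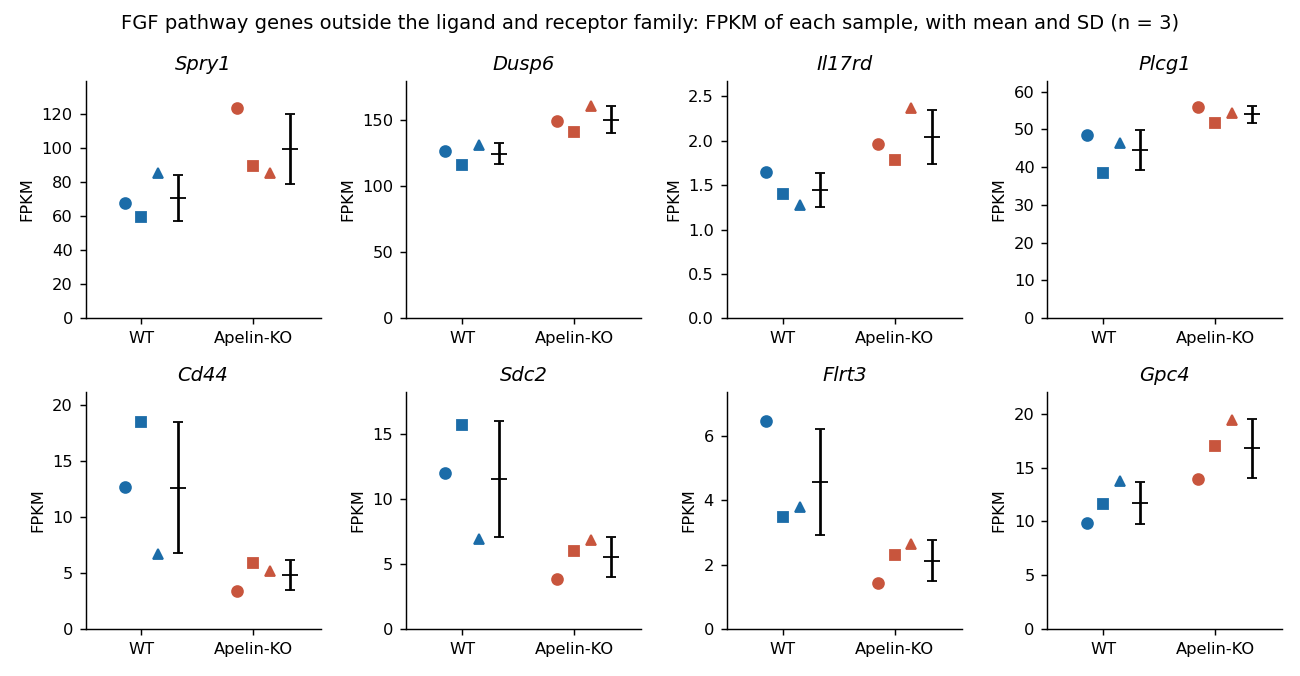
FPKM of 8 pathway genes outside the ligand and receptor family. Each panel has its own y axis from 0, each symbol is a sample (circle, square and triangle for replicates 1, 2 and 3), and the bar beside each group is the mean with the SD (n = 3). Spry1, Dusp6, Il17rd, Plcg1 and Gpc4 were lower and Cd44, Sdc2 and Flrt3 higher in every WT sample than in any Apelin-KO sample, with an adjusted p of at least 0.501 in limma for each. All 8 were drawn from genes at an unadjusted p under 0.05 in this same limma comparison, so nothing is read from their separation. Of all genes tested, 6.61% were higher and 7.77% lower without overlap in WT ECs, and of the 62 pathway genes tested, 5 and 10 were.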

How the data were processed

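RNA-sequencing data of sorted CD31+ CD45- ECs from MC38 tumors were available for 3 WT and 3 Apelin-KO samples, grouped by the sample titles. The authors made stranded mRNA libraries. The submitters' processing notes name bcl2fastq 2.17.1.14, TopHat2 2.1.1, Bowtie2 2.2.4, SAMtools 1.0, Cufflinks 2.2.1 and mm10. The deposited values are FPKM computed by the authors, 1 per gene symbol and sample. The annotation and the strand setting are not given in the sources used here.

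The FPKM were used as deposited. Genes averaging 1 FPKM or more were compared on log2(FPKM + 1) with limma 3.58.1 in R 4.3.3 (two-sided moderated test, no trend, no block), adjusted by the Benjamini-Hochberg method over 10964 genes and called at an adjusted p under 0.05. This scale understates the change of low genes. On simulated data of 10964 genes with 200 changed, 79% of genes changed 2-fold and 96.67% of those changed 4-fold were recovered. The changed genes were drawn only from levels above those of Fgf7, Fgf1 and Fgfrl1, and the noise was normal and independent between genes. These shares therefore do not cover low genes and may be too high for the real data. The family members and the gene lists were chosen with earlier results of these data known.

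The genes named are the members, Apln, in each pathway list the 2 most abundant genes and up to 4 with the smallest unadjusted p under 0.05, the 3 genes most correlated with each member at a mean of at least 1 FPKM, and 9 cell markers. A gene that this rule names is not reported here, though it is counted in its list. For depth, low values of 3745 single-transcript genes were converted to reads, assuming 200-base fragments, at the depth giving most whole numbers. From 69.04% to 71.84% of low values were whole to a tolerance of 0.1 (20% by chance), and the largest error on 5 simulated depths was 1.51%. Too few values came out whole for a count test. Reads of a gene use its longest GENCODE transcript. Alternatives changed the pseudocount, filter, scaling, variance, replicate block and samples included. Python 3.11.15 with scipy 1.17.1 gave the exact tests and matplotlib 3.10.9 the plots.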

Additional observations from a re-analysis of the deposited data

How the results depend on the processing

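Of 57 values of the members under the alternatives, 55 moved by less than 1 SD, and Fgf7 moved to 2.04 and 1.44 with pseudocounts of 0.1 and 0.5 FPKM. Leaving out 1 of 3 samples in a group cannot move a value by that much. Changes of filter, trend, variance or block leave a fold change as it is, so stability is not read from the 55. The sign of Fgfr1 changed, to 0.02, without Apelin-KO 3. No other pathway gene was called under any alternative. The count of all genes called was 1, and 2 with no filter, with a mean of at least 5 FPKM and with an intensity trend, 0 with each gene's own variance, and 0 to 3 when each sample was left out (0 without WT 2 and without Apelin-KO 2, 3 without WT 1). The count at an unadjusted p under 0.05 was 1033, and 538 to 1233 when each sample was left out. For the other pathway genes, the 6 higher and 6 lower in WT ECs were 2 higher with each gene's own variance and 3 lower with the FPKM scaled to the same sum, and 2 to 7 higher and 1 to 5 lower when each sample was left out. Of all 45 pairs of members tested for their level, 32 had an adjusted p under 0.05, of which 22 with a listed 0 and 2 with Fgf7 are not read, and 0 did with any sample left out, since 5 samples allow no exact p under 0.0625.

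With a replicate block, the pathway counts were 3 higher and 1 lower. The labels do not say that a replicate number marks a pair. The deviations from the group means correlated at -0.14, 0.21 and -0.02 for numbers 1, 2 and 3, and not every sample correlated best with its own number. With 3 samples in a group such deviations depend on each other, so these values cannot decide whether samples were paired. The block changed no adjusted call.

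Of 548 values of 37 other named genes, 539 kept direction and call. The call of Apln was lost in 3, and 6 changed direction. Leaving out each sample, log2 fold changes ran from -0.1 to 0.0962 for Nrp1 (-0.0891 without WT 3), from -0.0269 to 0.101 for Ext1, from -0.0203 to 0.222 for Gnpat, from -0.125 to 0.00775 for Arhgap25 and from -0.192 to 0.014 for Afap1. The cause was not tested. With a few reads per sample, differences in Fgfr2, Fgf10 and the genes listed at 0 were not detectable.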
